A study of Homo sapiens with 4 samples.

Results

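The replication-dependent histone genes were read here in DAOY, an established line of human medulloblastoma cells. They were taken as the gene symbols that begin with HIST1H, HIST2H, HIST3H or HIST4H in the table of raw counts, and 69 of 20363 symbols matched. Of these, 59 had at least 10 counts in at least 2 of the 4 libraries and were kept, namely 5 of 6 H1 genes, 13 of 17 H2A genes, 19 of 20 H2B genes, 9 of 11 H3 genes and 13 of 15 H4 genes. The counts near this limit were low. HIST1H1T, with 9 to 12 counts per library, was just inside, and HIST1H2BB, with 1 to 8, was just outside. The 4 conditions were control DAOY cells (CTL) and DAOY cells overexpressing the zinc finger protein ZNF521, each given DMSO, the vehicle, or SAG, which activates the SHH pathway, with 1 library per condition and no replicate. In the paper's methods, cells were starved before stimulation with SAG. Dose and time are not given there separately for the sequenced libraries. ZNF521 came from a lentiviral vector with an IRES-EGFP cassette. The deposited description calls the controls wild type, whereas the paper gives them the empty vector, so that ZNF521 and transduction cannot be told apart if the former holds. Where 4 values of a gene follow each other, they are those of CTL DMSO, CTL SAG, ZNF521 DMSO and ZNF521 SAG, in that order.

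Histones package DNA into nucleosomes. H2A, H2B, H3 and H4 form the core, and the linker histone H1 binds where DNA enters and leaves it. The replication-dependent genes lie in clusters, are transcribed during S phase under the coactivator NPAT, and give mRNAs that mostly end in a stem loop, bound by SLBP, in place of a poly-A tail. Some of these genes also give polyadenylated mRNA.

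The stem loop is shown first because it sets these mRNAs apart from others and because the library protocol names poly-A enrichment beside removal of ribosomal RNA. A search of GENCODE transcripts (hg38) for GGNNNTTTTNANNNCC, on the coding strand and with the 6 bases of both stem arms paired, found it in 53 of the 59 kept genes and in 13 of 19975 other coding genes (0.0651%). In 52 of the 53 it lay within 30 bases of a transcript end. In HIST2H2BE it lay 1729 bases before the end of a longer annotated transcript. No match was found in HIST1H2AG, HIST1H2BI, HIST1H3E, HIST1H4L, HIST2H2BA and HIST2H2BC. Of these, HIST2H2BA is annotated as a long noncoding RNA and HIST2H2BC as a pseudogene. One member of each class is printed below in DNA letters, 5′ to 3′, with the 16-base stem loop in capitals.
HIST1H1C (H1, chr6:26055740-26056470, minus strand): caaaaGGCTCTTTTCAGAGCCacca
HIST1H2AE (H2A, chr6:26216921-26217437, plus strand): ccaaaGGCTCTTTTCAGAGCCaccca
HIST1H2BG (H2B, chr6:26216200-26216688, minus strand): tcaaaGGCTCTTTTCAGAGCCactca
HIST1H3F (H3, chr6:26250142-26250635, minus strand): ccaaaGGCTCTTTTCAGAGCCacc
HIST1H4D (H4, chr6:26188710-26189112, minus strand): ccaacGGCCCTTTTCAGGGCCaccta
The coordinates are those of the genes. The core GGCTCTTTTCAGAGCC was shared by 33 members, and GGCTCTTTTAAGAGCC by 7. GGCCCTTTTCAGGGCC was found in 8 members and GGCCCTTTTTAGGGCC in 4.

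Promoters are printed for 2 members with small unadjusted p in the ZNF521 comparison, HIST1H2BG and HIST1H4D, because their letters differ by class. RefSeq promoters, from 250 bases before to 50 after the start, were found for 52 kept genes. CCAAT, searched on both strands, was in all promoters of the H1, H2A, H2B and H3 genes, in 2 of 11 of the H4 genes and in 35.6% of 27239 other promoters. ATTTGCAT, on both strands, was in 13 of 17 H2B and 8 of 12 H2A promoters, against 1.71% of the others. GGTCCG, on both strands, was in 11 of 11 H4 promoters, against 11.1%. TATAAA, on the coding strand, was in 2 of 5 H1, 9 of 12 H2A, 8 of 17 H2B, 6 of 7 H3 and 6 of 11 H4 promoters, against 7.58%. Capitals mark these motifs on the strands that were searched.
HIST1H2BG (chr6:26216639-26216938, GRCh38.p14, minus strand): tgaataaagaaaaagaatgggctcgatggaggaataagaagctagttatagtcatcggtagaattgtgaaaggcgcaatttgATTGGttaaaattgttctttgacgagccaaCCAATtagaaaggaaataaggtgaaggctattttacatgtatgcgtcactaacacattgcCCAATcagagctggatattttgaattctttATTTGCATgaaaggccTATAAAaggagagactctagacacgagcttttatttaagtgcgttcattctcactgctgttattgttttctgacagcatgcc
HIST1H4D (chr6:26189063-26189362, GRCh38.p14, minus strand): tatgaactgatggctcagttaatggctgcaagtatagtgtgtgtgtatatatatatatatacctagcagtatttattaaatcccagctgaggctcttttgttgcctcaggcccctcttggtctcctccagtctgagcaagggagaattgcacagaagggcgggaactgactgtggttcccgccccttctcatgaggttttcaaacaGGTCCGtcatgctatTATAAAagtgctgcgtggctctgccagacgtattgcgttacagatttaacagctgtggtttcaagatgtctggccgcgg
A match is a description of the letters and not of binding. Among the 21 H2A and H2B genes with ATTTGCAT the median log2 fold change for ZNF521 was 0.34, and among the 8 without it 0.39.

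Total gene counts ran from 12294833 to 16314685 per library. ZNF521 mRNA was at 713.7 and 751.1 normalised counts in CTL cells and at 2013 and 2072 in ZNF521 cells, and GLI1, a target of SHH signalling, at 75.4 and 44.2 with DMSO and at 324 and 318 with SAG. The library of CTL cells with DMSO stood apart. Over 9161 genes with a mean of at least 200 normalised counts, its log2 deviations from the mean of a gene had an SD of 0.273, against 0.126 to 0.142 in the other 3. The granule neuron markers ZIC1, ZIC2, PAX6 and MEIS1 were detected, whereas ATOH1, BARHL1 and NEUROD1 were at 8.44 normalised counts or less. The 5 blood markers summed to 18.56 to 30.16, the 5 glial markers to 73.06 to 117.3 and the 4 endothelial markers to 75.09 to 95.49. The 5 mesenchymal markers, which DAOY cells expressed throughout, summed to 74290 in CTL cells with DMSO and to 45710 to 51620 in the other libraries, and their part in the results below was not tested.

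The kept histone genes took 1.3%, 1.73%, 1.94% and 1.79% of all gene counts. The lowest of the 4 shares was thus that of CTL cells with DMSO and the highest that of ZNF521 cells with DMSO. H2B genes held 33.7% to 34.7% of the histone counts in each library, H1 genes 27.1% or more, H2A genes 18.6% to 19.0%, H4 genes 14.2% to 16% and H3 genes 3.15% to 3.68%. These shares cover the symbols in the table, so that they are not the makeup of the nucleosome. Each class was lowest in CTL cells with DMSO and highest in ZNF521 cells with DMSO.

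**Figure D1:**
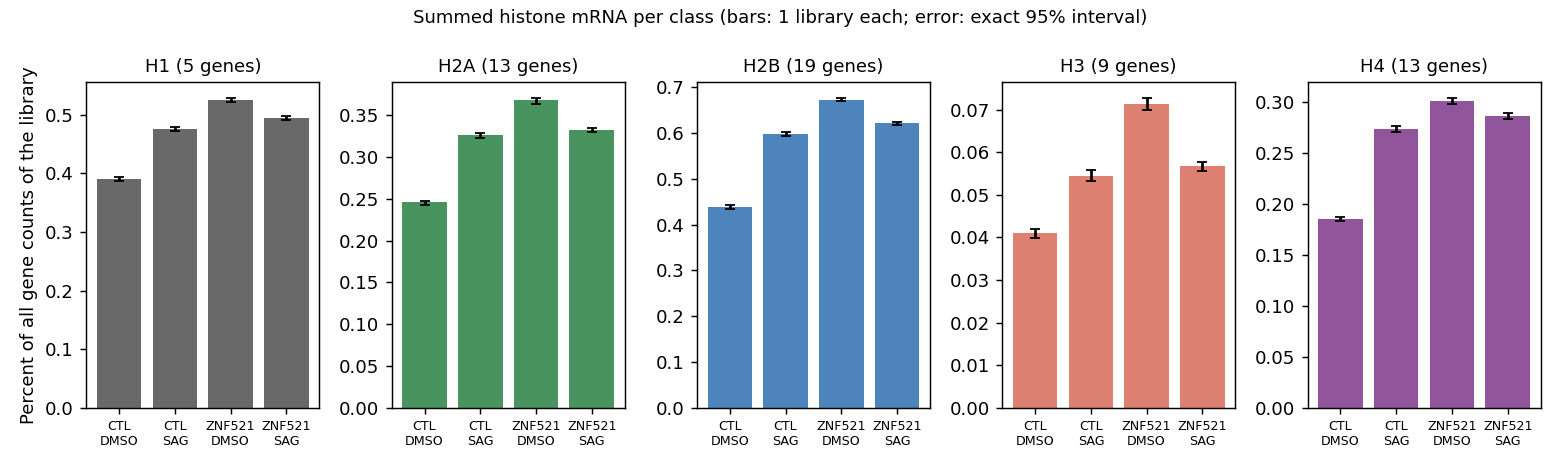
Share of all gene counts taken by each histone class (y axis, percent, from 0 in each panel) in the 4 libraries (x axis). Bars are 1 library each and error bars exact 95% intervals for counting error. In all 5 panels the bar of CTL cells with DMSO is the lowest.

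Levels differed widely between members. Per kb of the canonical transcript, a scale chosen after values were seen, the highest mean normalised counts were those of HIST1H1C (40010), HIST1H1E (33380), HIST1H4E (28410), HIST2H2AC (24120), HIST1H2BC (23350) and HIST1H2BD (22630). With the merged exons of all annotated transcripts as length, HIST1H2BC was at 3729 and HIST1H2BD at 12780, while the first 4 had the same values. At the low end were HIST1H1T, the testis H1 (14.58), and HIST1H2BM (18.66), while with merged exons HIST2H4B was lowest (13.96) and HIST1H2BE (15.15) lay below HIST1H2BM. The order therefore depends on the length that is used for genes with several annotated transcripts. HIST1H1C and HIST1H1E together made up most of the H1 counts, at 45.1% and 40.5% of the class. HIST1H4E and HIST1H4C held 32.6% and 24.2% of H4, and HIST1H3H and HIST2H3D 38.2% and 30.8% of H3.

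The share of a member in its class ranged over at most 4.02 percentage points between libraries. HIST1H1C held 44.1% to 45.9% of the H1 counts and HIST1H2BD 13.5% to 14.0% of the H2B counts. The widest range in the H2A class was that of HIST2H2AC, at 29.9% in CTL cells with DMSO and 25.9% to 28.0% in the others. For 14 members more than 50% of the 50-base stretches occur in other genes, among them HIST2H2AA3, HIST2H2AA4, HIST2H3A, HIST2H3C, HIST2H4A and HIST2H4B, and how the counting split such reads is not given in the sources used here. The values of these members are therefore uncertain.

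**Figure D2:**
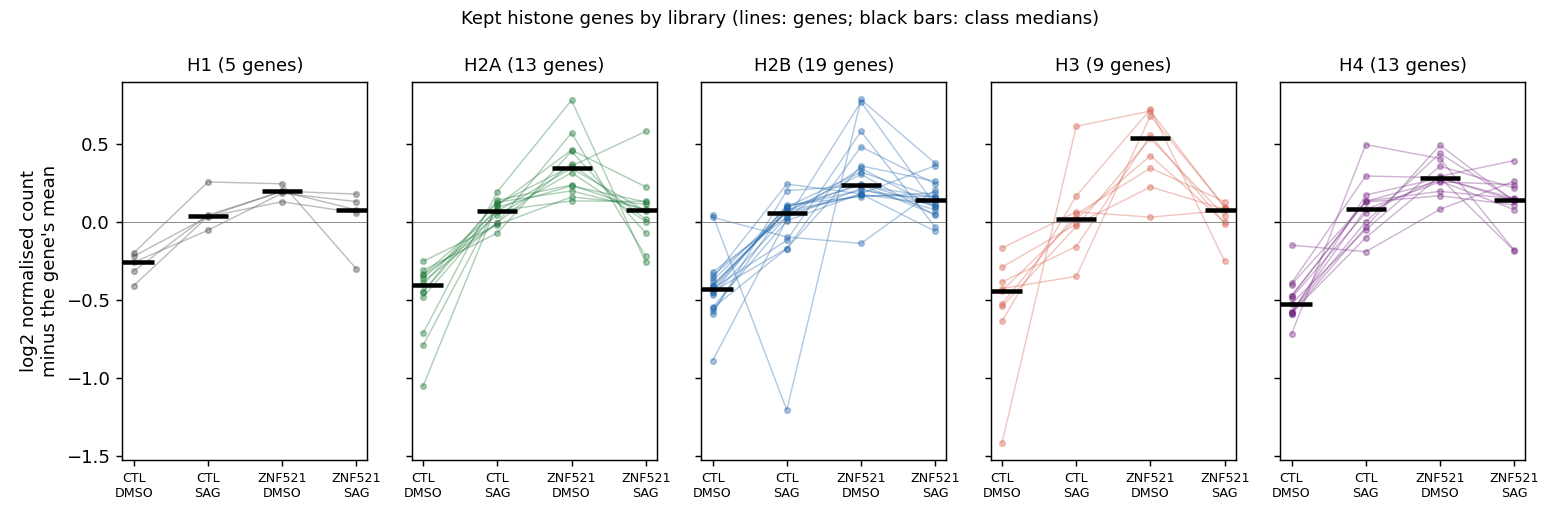
Each kept histone gene in the 4 libraries, as its log2 normalised count minus its mean over the libraries (y axis), by class. Lines are genes and black bars class medians. Of 59 genes, 55 have their lowest point in CTL cells with DMSO (37.5% of all genes tested).

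ZNF521 cells were compared with CTL cells to ask which genes differ with ZNF521. With DMSO, the summed normalised counts of each class were higher in ZNF521 cells. The linker H1 class was at 52868 in CTL and 72281 in ZNF521 cells with DMSO, and at 65921 and 68124 with SAG. The difference between the cells with SAG was small beside that with DMSO. The ratio with DMSO was 1.37 (exact 95% interval 1.35 to 1.38), and with SAG it was 1.03 (1.02 to 1.04).

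The core classes had larger ratios with DMSO. H2A was at 33257 in CTL and 50565 in ZNF521 cells with DMSO (ratio 1.52, interval 1.5 to 1.54) and at 45163 and 45783 with SAG (1.01, 1 to 1.03). H2B was at 59313 and 92563 with DMSO (1.56, 1.54 to 1.58) and at 82811 and 85500 with SAG (1.03, 1.02 to 1.04). In both dimer partners the CTL library with DMSO was the low one of the 4. H3 was at 5548 and 9809 with DMSO (1.77, 1.71 to 1.83) and at 7554 and 7801 with SAG (1.03, 1 to 1.07). H4 was at 25036 and 41371 with DMSO (1.65, 1.63 to 1.68) and at 37863 and 39353 with SAG (1.04, 1.02 to 1.05). These intervals cover counting error only and hold no error between cultures, and in bulk RNA fewer cells that express a gene and less RNA per cell cannot be told apart.

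Gene by gene, 58 of 59 members had a higher normalised count in ZNF521 than in CTL cells with DMSO (52.6% of all genes tested), and 44 were at least 1.5-fold higher (6.77%). With SAG, 41 were higher (49.2%), 1 was at least 1.5-fold higher (3.37%) and 1 at least 1.5-fold lower (2.84%). The 2 pairs share no library. The median log2 ratio of the members was 0.73 with DMSO and 0.06 with SAG, against 0.03 and 0.00 over the 14970 genes tested. Among the 31 members with a mean of at least 1000 normalised counts the SD of the log2 ratios was 0.15 with DMSO and 0.08 with SAG, and among the 28 below that mean 0.46 and 0.44.

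**Figure D3:**
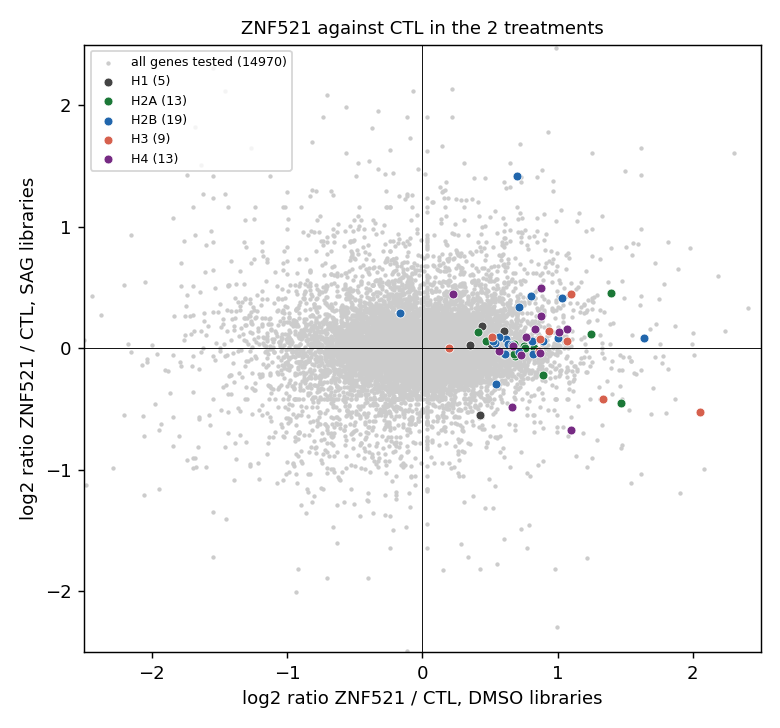
Log2 ratio of ZNF521 to CTL cells with DMSO (x axis) against that with SAG (y axis). Grey points are the 14970 genes tested (20 lie outside the axes) and coloured points the kept histone genes by class. Of 59 histone genes, 58 lie right of 0, while 41 lie above 0.

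Across both treatments, edgeR's quasi-likelihood test with treatment as block called 0 of 59 members at an adjusted p of at most 0.05 (0.00668% of all genes). With 1 library per condition, this test has 1 residual degree of freedom and a prior of 11.7 borrowed from all genes. The residual is the difference of the ZNF521 effect between treatments, which the additive model takes as error. The SE (worked back from the test statistic) and the p hold no error between replicate cultures. The same limit holds for the test of SAG below. With the threshold of the study, an unadjusted p of at most 0.05, 18 of 59 (30.5%) were higher and 0 lower, against shares of 2.36% and 3.11% over the whole table. They were 0 of 5 H1, 3 of 13 H2A, 6 of 19 H2B, 4 of 9 H3 and 5 of 13 H4 genes. DESeq2 called 11 members at the unadjusted threshold and 0 at the adjusted one, and limma 18 and 0. Over all 14970 genes, the calls in either direction at the unadjusted threshold were 820 in edgeR, 167 in DESeq2 and 814 in limma. The median log2 fold change of the members was 0.36, with 58 of 59 above 0, against 0.00 for all genes. Both ZNF521 libraries lay above both CTL libraries in 39 members (13.3% of all genes). With 3 libraries the block leaves no residual degree of freedom, so that each fit without 1 library also dropped the block and changed 2 things at once. Without the library of CTL cells with DMSO, the median was 0.15 in such a fit, and 8 members were higher at the unadjusted threshold (2.46% of all genes), whereas the pair with SAG, which does not hold that library, had the median log2 ratio of 0.06 given above. Without that of ZNF521 cells with DMSO 0 members were higher at this threshold (0.18%), and without that of ZNF521 cells with SAG 10 were (0.367%). Without that of CTL cells with SAG, 59 of 59 members had a log2 fold change above 0, against 58 with all libraries.

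HIST1H2BG, an H2B gene, had the smallest p. Its normalised counts were 222, 289, 454 and 385. Both ZNF521 libraries were above both CTL libraries, as in 39 of 59 members (13.3% of all genes). The gene was named for its small p in these same libraries. The log2 fold change was 0.71 (SE 0.184, unadjusted p = 0.00211 and adjusted p = 0.679 from edgeR). Its divergent partner HIST1H2AE, an H2A gene whose start is 232 bases away, was at 415, 772, 987 and 838, and its log2 fold change was 0.66 (SE 0.221, unadjusted p = 0.0104 from edgeR).

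HIST1H4L and HIST1H4D encode H4. HIST1H4L was at 144, 201, 264 and 283 normalised counts, with a log2 fold change of 0.67 (SE 0.180, unadjusted p = 0.00263 from edgeR). HIST1H4D was at 1710, 2374, 3146 and 2856, with 0.56 (SE 0.168, unadjusted p = 0.00554 from edgeR). In both genes both ZNF521 libraries were above both CTL libraries (13.3% of all genes). HIST1H3F, an H3 gene, was at 99.5, 105, 214 and 143, with 0.77 (SE 0.214, unadjusted p = 0.00331 from edgeR). Here too the CTL libraries were the lower ones. These genes were named for small p in the same libraries, so that this order is no separate support.

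The testis histone genes are known for expression in male germ cells. HIST1H2BA was at 166, 201, 290 and 271 normalised counts (log2 fold change 0.61, SE 0.178, unadjusted p = 0.00492 from edgeR). Its divergent partner HIST1H2AA was at 32.2, 72.2, 85.4 and 99.6 (0.87, SE 0.272, unadjusted p = 0.00729 from edgeR). Both had their 2 highest values in ZNF521 cells (13.3% of all genes). HIST1H1T, at 9.05, 12.4, 12.3 and 8.44, had a log2 fold change of -0.07 and was the 1 member below 0.

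The most abundant members had smaller fold changes. HIST1H1C was at 23310, 29890, 33190 and 30600 normalised counts, with a log2 fold change of 0.26 (SE 0.199, unadjusted p = 0.215 from edgeR). HIST1H1E was at 22450, 26770, 28600 and 27240, with 0.18, and HIST1H1B at 5134, 6980, 7813 and 7707, with 0.36. None of these H1 genes passed. HIST2H2AC was at 9943, 11690, 13230 and 12810 (0.26), HIST1H2AC at 7361, 11060, 11830 and 10570 (0.30) and HIST1H2AG at 6155, 8883, 9342 and 8603 (0.27). HIST1H2AC and HIST1H2AG had their second highest values in CTL cells with SAG, so that the groups overlapped. HIST2H2BE was at 12200, 15560, 17680 and 16080 (0.28), HIST1H2BD at 8011, 11600, 12460 and 11930 (0.33) and HIST1H2BC at 7713, 11410, 11830 and 12030 (0.34). The gene of HIST1H2BC overlaps HFE on the other strand, and the strand setting of the counting is not given in the sources used here.

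Among abundant H3 and H4 genes, 2 of 6 passed the unadjusted threshold, against 2.36% of all genes called higher. HIST1H4C was at 5688, 8964, 10120 and 9997 normalised counts (log2 fold change 0.48, unadjusted p = 0.0240 from edgeR) and HIST2H3D at 1608, 2391, 2933 and 2526 (0.46, unadjusted p = 0.0253 from edgeR). Both were higher in each ZNF521 library than in each CTL library (13.3% of all genes). For HIST2H3D, 71.9% of the 50-base stretches occur in other genes, so that its values are uncertain. HIST1H4E was at 8755, 12620, 12980 and 12460 (0.26), HIST1H4B at 3851, 5872, 6135 and 5938 (0.33), HIST1H3H at 2112, 2902, 3844 and 2859 (0.41) and HIST1H3I at 768, 929, 1096 and 993 (0.29). In HIST1H4E and HIST1H3H the library of CTL cells with SAG was above that of ZNF521 cells with SAG.

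The 10 members listed as also giving polyadenylated mRNA had a median log2 fold change of 0.33, and the 49 other members 0.36. In the pair with DMSO their median log2 ratios were 0.70 and 0.75. All 10 were lowest in CTL cells with DMSO (37.5% of all genes). HIST4H4 was at 474, 707, 957 and 777 normalised counts (log2 fold change 0.56), HIST1H2BJ at 4913, 7804, 9113 and 8151 (0.47) and HIST3H2A at 1526, 2236, 2703 and 2237 (0.40). These passed the unadjusted threshold in edgeR, while HIST1H2BK, at 5122, 7136, 8412 and 7012 (0.33), and HIST2H2AA3, at 27.1, 50.7, 76.1 and 37.1 (0.50), did not. The part of the library preparation in these values was not tested. The 53 members with a stem loop had a median of 0.37 and the 6 without a match 0.19. Among the 6, the noncoding HIST2H2BA and the pseudogene HIST2H2BC had 0.11 and 0.06. The coding HIST1H3E, HIST1H2AG, HIST1H2BI and HIST1H4L had 0.09, 0.27, 0.36 and 0.67.

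Divergent pairs, in which 2 histone genes start close together and run apart, numbered 10 among the kept genes. In HIST2H2BE/HIST2H2AC the log2 fold changes for ZNF521 were 0.28 and 0.26, in HIST1H2BC/HIST1H2AC 0.34 and 0.30, and in HIST3H2A/HIST3H2BB 0.40 and 0.43. In HIST2H2BC/HIST2H2AA4, the pair with a pseudogene, they were 0.06 and 0.35. Genes of the HIST1 cluster on chromosome 6 (43) had a median of 0.36 and those of HIST2 on chromosome 1 (13) of 0.28.

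SAG was compared with DMSO to ask which genes differ when the SHH pathway is activated. The histone genes were higher with SAG in CTL cells and lower with SAG in ZNF521 cells, so that the sum over all kept members was at 176022 with DMSO and 239312 with SAG in CTL cells (ratio 1.36, exact 95% interval 1.35 to 1.37) and at 266590 and 246562 in ZNF521 cells (0.925, 0.920 to 0.930). The 2 ratios lie on opposite sides of 1. In CTL cells the ratio was 1.25 for H1, 1.36 for H2A, 1.40 for H2B, 1.36 for H3 and 1.51 for H4. In ZNF521 cells it was 0.942, 0.905, 0.924, 0.795 and 0.951. The comparisons of ZNF521 and of SAG use the same 4 libraries, so that the low value of CTL cells with DMSO enters both.

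In CTL cells 56 of 59 members were higher with SAG (51.1% of all genes), 16 at least 1.5-fold (8.66%) and 1 at least 1.5-fold lower (10.5%). In ZNF521 cells 52 were lower with SAG (48.9%), 6 at least 1.5-fold (3.57%), and 0 were at least 1.5-fold higher (2.73%). In 33 members (55.9%) the ratio was above 1 in CTL cells and below 1 in ZNF521 cells with both counting intervals clear of 1, against 2.7% of all genes. Such intervals narrow as counts rise, and 31 of the 59 members had a mean of at least 1000 normalised counts. The genes tested reach down to 10 counts in 2 libraries, so that these 2 shares are not matched for depth. The lowest of the 4 libraries was CTL cells with DMSO in 55 members (37.5% of all genes), the exceptions being HIST1H1T, HIST1H2BM, HIST1H4I and HIST2H2BC. The highest was ZNF521 cells with DMSO in 48 (20.9%). Both SAG libraries lay above both DMSO libraries in 1 member, HIST1H3E (25.4% of all genes).

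**Figure D4:**
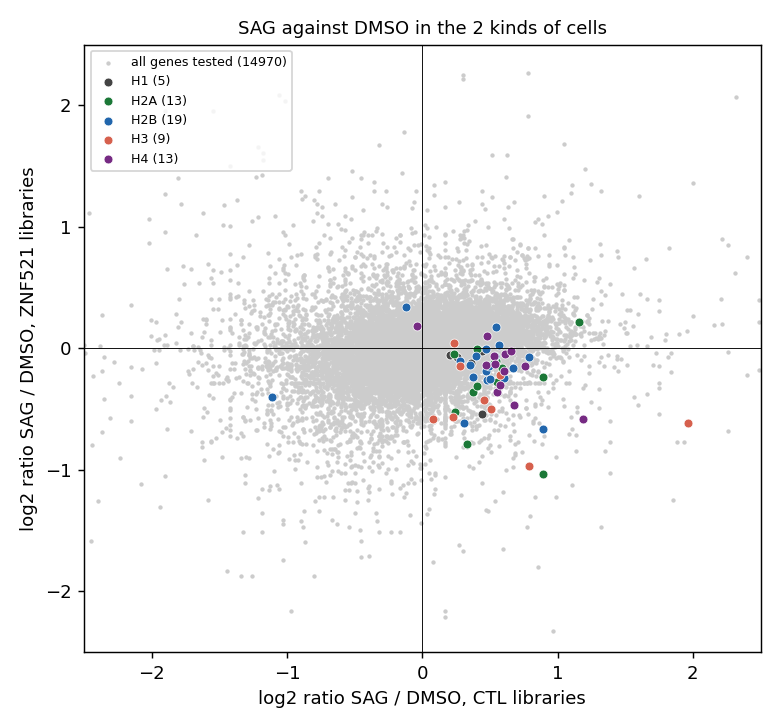
Log2 ratio of SAG to DMSO in CTL cells (x axis) against that in ZNF521 cells (y axis). Grey points are the 14970 genes tested (22 lie outside the axes) and coloured points the kept histone genes by class. Of 59 histone genes, 56 lie right of 0 and 52 below 0.

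Across both kinds of cells, edgeR's test with cells as block called 0 of 59 members at the adjusted threshold (0.0401% of all genes). At the unadjusted threshold it called 1 higher and 0 lower, against 6.21% and 5.12% of all genes. The 1 was HIST1H2AA (log2 fold change 0.61, unadjusted p = 0.0420 from edgeR). DESeq2 called 0 members at either threshold and limma 1 and 0. Over all 14970 genes DESeq2 called 424 and limma 1717 in either direction at the unadjusted threshold. The median log2 fold change was 0.14, with 48 members above 0. With the block and the library of CTL cells with DMSO both left out, the median was -0.18, and 24 members were lower at the unadjusted threshold (7.26% of all genes) with 5 of them past the adjusted one. The pair of ZNF521 cells, which does not hold that library, had a median log2 ratio of -0.16 with 7 of 59 members above 0. With the block and the library of ZNF521 cells with DMSO both left out, 58 of 59 members had a log2 fold change above 0.

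Members with the same sign of the SAG ratio in both kinds of cells were few. HIST1H3E, an H3 gene, was at 259 and 304 normalised counts in CTL cells with DMSO and SAG and at 297 and 306 in ZNF521 cells, which is a log2 fold change of 0.14 (unadjusted p = 0.430 from edgeR). HIST1H4L had 0.28 and HIST1H2BC 0.29 (unadjusted p = 0.147 and 0.132 from edgeR). None of these 3 passed. Among the members with a mean of at least 1000 normalised counts, the ratios lay furthest apart in HIST1H4H, 1.69 in CTL cells and 0.907 in ZNF521 cells, and in HIST1H3H, 1.37 and 0.744.

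The members differed from other genes in GC content and transcript length. They had a median GC content of 58.2% and a median length of 489 bases, against 48.9% and 3257 over all genes tested. Their median log2 deviation from the gene mean was -0.44, 0.05, 0.28 and 0.10 in the 4 libraries. For 2193 other genes of the same GC range the values were 0.13, -0.07, 0.04 and -0.08, and for 663 other genes of at most 800 bases -0.10, 0.02, 0.08 and 0.02. The GC range thus deviated the other way in CTL cells with DMSO, and the short genes the same way but less. With an offset for GC content in edgeR, 39 members were higher for ZNF521 at the unadjusted threshold (2.92% of all genes) and 12 passed the adjusted one, and for SAG 21 were higher (2.51%) and 0 passed. The counts over all genes at the adjusted threshold in these fits are given in the last section.

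The genes that supply histone mRNA and protein are given beside the 5.48% of all genes called in either direction for ZNF521 at the unadjusted threshold and the 11.3% called for SAG. Of 8 genes of histone gene transcription, 0 were called for ZNF521, and for SAG 1 was higher at the unadjusted threshold, and the median of the list (log2) was 0.14 in the ZNF521 comparison and 0.27 in the SAG comparison. The called gene was NPAT, the coactivator of histone genes, at 320, 474, 438 and 537 normalised counts (log2 fold change 0.43 for SAG, unadjusted p = 0.0214 and adjusted p = 0.392 from edgeR). CASP8AP2, which is needed for histone transcription, was at 184, 272, 281 and 303. Both genes were lowest in CTL cells with DMSO, as were 5 of the 8 (37.5% of all genes). Of 14 genes of histone mRNA processing, 0 were called for ZNF521 and 2 for SAG, the cap-binding NCBP1 (0.40) and the scaffold SYMPK (-0.41). SLBP was at 1015, 1183, 1126 and 1258 and was not called. Of 17 histone chaperones and assembly factors, 0 were called for ZNF521 and 2 were higher for SAG, the acetyltransferase HAT1 (0.62) and ATRX (0.48).

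Replication-independent histones, which are made outside S phase as well, had 0 of 11 called in either comparison, and their median log2 ratio in the pair with DMSO was 0.20, against 0.73 for the replication-dependent genes. H2AFZ was at 1907, 3155, 3166 and 3137 normalised counts. It too was lowest in CTL cells with DMSO, while H1FX, at 2266, 1764, 1889 and 1757, was highest there. Of 26 S phase genes, 0 were called for ZNF521 and 3 for SAG, a share close to that of all genes. For SAG the replication genes PRIM1 (0.46) and RFC4 (0.34) were higher and the nucleotide synthesis gene TYMS (-0.50) lower. Of 12 G2/M genes, CDK1 (0.48) was higher and MKI67 (-0.47) lower for ZNF521, and CDK1 (0.68) and TOP2A (0.46) were higher for SAG. None of the genes on these lists passed the adjusted threshold. CTL cells with DMSO were the lowest library in 18 of 26 S phase and 9 of 12 G2/M genes, against 37.5% of all genes. Of 17 RNAs without poly-A tails 5 were tested, and 0 were called for ZNF521 and 1, the vault RNA VTRNA1-1, was lower for SAG (-0.97).

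**Figure D5:**
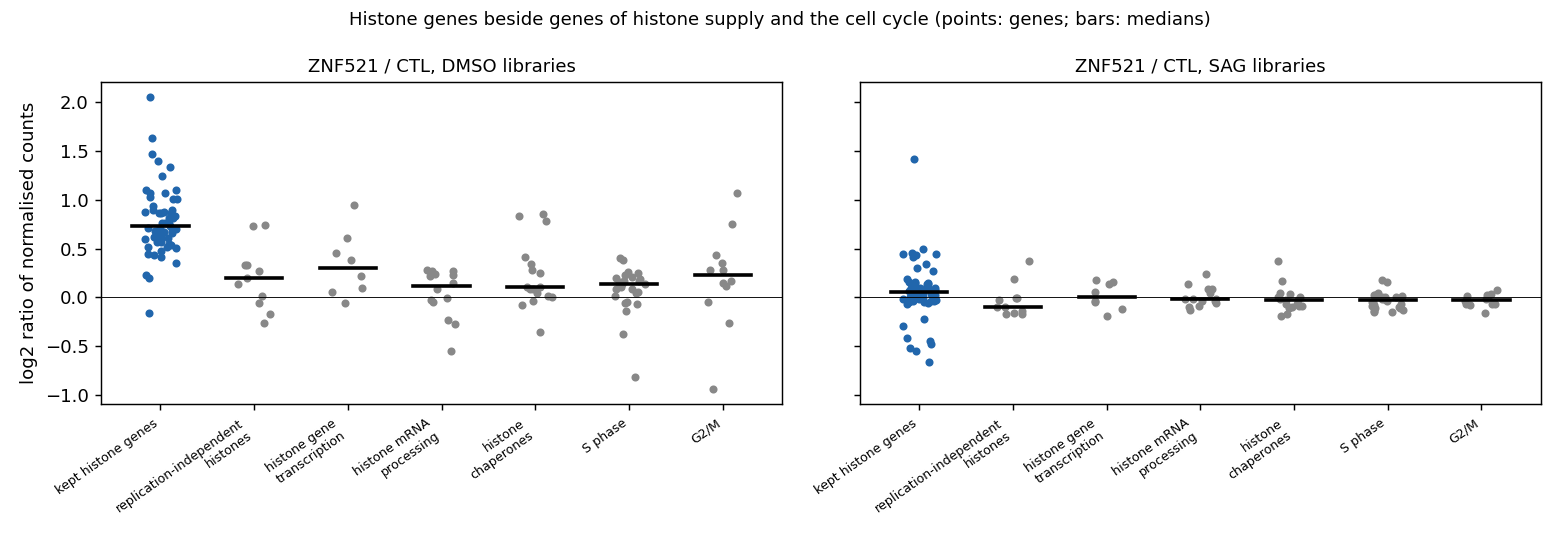
Log2 ratio of ZNF521 to CTL cells (y axis) with DMSO (left) and with SAG (right) for the kept histone genes (blue) and the lists of related genes (grey). Points are genes and bars medians. With DMSO the median of the histone genes is 0.73 and that of the S phase genes 0.14.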

How the data were processed

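DAOY RNA was read as paired 50 nt reads in 4 libraries, 1 per condition. The authors aligned to hg38 and obtained counts per gene with STAR 2.7.0e, and the deposited signal values are these counts divided by 1 size factor per library (DESeq2, median of ratios). The annotation and strand setting are not given in the sources used here. Genes that reached 10 raw counts in 2 or more libraries (14970) were fitted in edgeR 4.0.16 in R 4.3.3 (TMM, glmQLFit, glmQLFTest, the other factor as block, Benjamini-Hochberg over all genes), which leaves 1 residual degree of freedom. Alternatives were RLE factors, library size alone, other filters, DESeq2 1.42.0, limma 3.58.1, no block, GC or length offsets in 10 bins, and each library left out together with the block, since 3 libraries leave no residual degree of freedom with it. Ratios of 2 libraries have exact (Clopper-Pearson) 95% intervals for counting error, and 0.5 counts were added for list medians, fold counts and plotted ratios. The members and gene lists were chosen with earlier results of these data known. Named members were the 3 of highest level per class, up to 6 per comparison and direction by unadjusted p, with a mean of at least 50 normalised counts and the same sign in both pairs, and the polyadenylated and testis lists. Members named beyond these, such as HIST1H2AE, were chosen after their values were seen. Transcripts came from GENCODE 44 and promoters from RefSeq (GRCh38.p14), and 69 of 69 histone symbols matched.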

Additional observations from a re-analysis of the deposited data

Results flagged for a closer look

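The ratio of SAG to DMSO lay on opposite sides of 1 in CTL and in ZNF521 cells for the sum of each histone class. As the log2 ratio in ZNF521 cells minus that in CTL cells, the difference was -0.40 for H1, -0.58 for H2A, -0.60 for H2B, -0.78 for H3 and -0.67 for H4. With 1 library per condition the difference was not tested, and the library of CTL cells with DMSO, whose spread over all genes was the largest of the 4, enters each value.

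The same opposite direction was found in named members, and the difference was not tested in any of them. It was -0.48 for HIST1H1C, -0.32 for HIST1H1E, -0.28 for HIST2H2AC, -0.75 for HIST1H2AC, -0.65 for HIST1H2AG, -0.49 for HIST2H2BE, -0.59 for HIST1H2BD, -0.89 for HIST1H3H, -0.79 for HIST2H3D, -0.41 for HIST1H3I, -0.59 for HIST1H4E, -0.62 for HIST1H2BG, -0.61 for HIST1H4D, -0.83 for HIST1H2BJ, -0.74 for HIST1H2BK, -1.94 for HIST2H2AA3, -0.82 for HIST3H2A and -0.88 for HIST4H4. The counts of HIST2H2AA3 were low and its reads are shared with HIST2H2AA4. HIST1H2AC was also on opposite sides of 1 for ZNF521, with a log2 ratio that was -0.75 in the SAG pair minus the DMSO pair, and this difference was not tested either. It was not alone in this. HIST1H2AG had a ratio of 1.52 with DMSO and of 0.968 (interval 0.940 to 0.998) with SAG. By value alone, the named members HIST1H1T, HIST1H2BK, HIST1H3H, HIST1H4E and HIST2H2AA3 were also above 1 with DMSO and below 1 with SAG. Among all 59 members, named or not, 18 were below 1 with SAG (50.8% of all genes).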

How the results depend on the processing

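The sums per class are ratios of scaled counts, which the tests and the block do not enter. They had the same direction under the alternatives that apply to them, so that those of the test and the block say nothing about them. For ZNF521 the median log2 fold change of the members was above 0 in all settings (0.15 to 0.61 with 1 library and the block left out), while the 18 members at the unadjusted threshold became 32 without a filter on low counts, 11 with DESeq2, 39 with GC offsets and 0 to 50 with 1 library and the block left out, and the 1 gene called over all genes became 100, 142 with GC offsets, 29 with length offsets and 0 to 2341. For SAG the 1 member became 0 with DESeq2, 21 with GC offsets, 4 with length offsets and 0 to 46 with 1 library and the block left out (24, all lower, where that library was CTL cells with DMSO), the median ran from -0.18 to 0.51, and the 6 genes over all became 223 without a filter, 80 with GC offsets, 83 with length offsets and 3 to 4584. Without the replicate block, 14 members were called for ZNF521 and 0 for SAG, where 0 genes over all were called. At the adjusted threshold for ZNF521, 4 members passed without a filter on low counts and 12 with GC offsets, where 142 of all 14970 genes did. The genes over all at the unadjusted threshold for ZNF521 were 820 of 14970 in the main fit. They were 1259 of 20363 without a filter, and 167 with DESeq2 and 1056 with GC offsets, both of 14970. For SAG 48 members were above 0 in the fit of all libraries, 4 in the fit without the block and without CTL cells with DMSO, and 7 in the pair of ZNF521 cells. A fit without 1 library changes 2 choices, the library and the block, and their parts were not told apart. It has 1 sample in an arm, which is assumed to vary like the others. The cause of these changes was not tested.

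The log2 fold changes of these named members turned sign in a fit with 1 library and the block left out, which need not be the sign in the remaining pair (HIST1H4L and HIST1H2BC were above 0 for SAG in the pair of ZNF521 cells). For SAG their ranges were HIST1H1B -0.10 to 0.51, HIST1H1C -0.14 to 0.37, HIST1H1E -0.09 to 0.26, HIST1H1T -0.34 to 0.21, HIST1H2AC -0.14 to 0.55, HIST1H2AG -0.10 to 0.50, HIST1H2BA -0.29 to 0.51, HIST1H2BC -0.02 to 0.59, HIST1H2BD -0.09 to 0.55, HIST1H2BG -0.42 to 0.60, HIST1H2BJ -0.20 to 0.69, HIST1H2BK -0.26 to 0.46, HIST1H3F -0.77 to 0.33, HIST1H3H -0.42 to 0.44, HIST1H3I -0.19 to 0.32, HIST1H4B -0.06 to 0.61, HIST1H4C -0.10 to 0.73, HIST1H4D -0.27 to 0.61, HIST1H4E -0.06 to 0.51, HIST1H4L -0.12 to 0.76, HIST2H2AA3 -0.82 to 0.66, HIST2H2AC -0.12 to 0.29, HIST2H2BE -0.17 to 0.37, HIST2H3D -0.26 to 0.60, HIST3H2A -0.28 to 0.54 and HIST4H4 -0.37 to 0.64. HIST1H3H was also at 0.00 with library size alone, -0.01 with the stricter filter (mean count 50) and -0.05 without the block, and HIST2H2AA3 at 0.06 with GC offsets. For ZNF521 they were HIST1H1T -0.34 to 0.19, HIST1H3E -0.01 to 0.20 and HIST2H2AA3 -0.06 to 1.01. Counts per library, and a single library per condition, limit all of these values.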
